A study of Mus musculus with 18 samples.

Results

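Potassium channels let potassium ions leave or enter a cell along their electrochemical gradient and so set its resting potential, its volume and the driving force for other ions. In secretory epithelia they recycle the potassium that the sodium pump brings in, and in thyroid follicular cells a channel built from KCNQ1 and KCNE2 is needed for iodide uptake in mice. The genes described here are those whose probe symbol begins with Kcn, without Kcnn4, which gave 79 genes with 118 probes among 25697 probes in all. Each gene is given by the probe with the highest mean over all arrays, which matters for the 26 genes with more than 1 probe.

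The signals came from thyroids of 21 nude BALB/c mice, females of 6 months, removed 24 h after an intravenous injection of 211At, an alpha-particle emitter, or after treatment with an empty syringe. The 6 groups were non-irradiated controls (0 Gy) and mice whose thyroid had received an absorbed dose of 0.05, 0.5, 1.4, 11.2 or 32.4 Gy. The nude strain shared by all groups lacks a working thymus and most of its T cells. RNA was extracted from a single pool of thyroids per group, and 3 Illumina MouseRef-8 arrays of each pool made up the 18 arrays, so that n = 3 arrays of 1 pool in every value below and p-values measure the spread between arrays and not between mice. In such a pool, fewer cells of a type and less RNA per cell cannot be told apart.

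Between 10257 and 11328 probes had a detection p-value under 0.01 on an array, and the median signal before normalization was 86.3 to 115. As normalized by the authors, the arrays of 0.05 and 0.5 Gy (6) have a distribution of their own, whose upper quartile differs by −0.444 on the log2 scale from that of the remaining 12, so that ratios at these 2 doses stand beside ratios after joint quantile normalization of all 18 arrays. The median log2 ratio of all probes was −0.19 at 0.05 Gy and −0.19 at 0.5 Gy in the authors' values, and −0.01 at both after joint normalization. Of 9 measured markers of thyroid follicular cells, 8 (Tg, Slc5a5, Pax8, Nkx2-1, Foxe1, Duox2, Iyd and Slc26a4) were detected in no group, and Tshr was detected in 3. All 10 measured markers of the submandibular and sublingual glands, all 8 of brown adipose tissue and 12 of 14 of skeletal muscle were detected. The same held for 7 of 8 markers of smooth muscle and pericytes, 7 of 8 of endothelium, 5 of 5 of macrophages and 3 of 5 of Schwann cells and nerve, but for 0 of 4 of C cells and parathyroid and 0 of 6 of T cells. The tissue labelled thyroid thus had 1 of its 9 measured follicular markers above the detection limit.

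Detection, a p-value under 0.01 on all 3 arrays of a group, was reached by 17 of the 79 genes in at least 1 group (21.5%, against 44% of all probes). The tandem-pore domain channel genes, which encode leak channels, had 6 of 13 detected, beside 2 of 6 calcium- and sodium-activated channels, 3 of 12 inward rectifiers, 4 of 32 voltage-gated alpha subunits and 2 of 16 auxiliary subunits. Kcnk1, Kcnk2, Kcnk3, Kcnk5, Kcnk6 and Kcnj8 were detected in all 6 groups. The number of detected genes was 9 at 0 Gy, and 11, 13, 9, 9 and 12 at the 5 doses in rising order. Just outside the rule were Kcnmb4, detected on 8 of the 18 arrays but never on all 3 of a group, and Kcna5, detected on 4.

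The other 62 genes were detected in no group, and 41 of them on no array. Their group means lay between 83.9 and 147, with a median over genes of 103. They were 28 voltage-gated alpha subunits (Kcna1 to Kcna7, Kcna10, Kcnc1, Kcnd1 to Kcnd3, Kcnf1, Kcng1, Kcng3, Kcnh2 to Kcnh7, Kcnq3, Kcnq5, Kcns1 to Kcns3, Kcnv1 and Kcnv2) and 14 auxiliary subunits (Kcnab1, Kcnab3, Kcne1, Kcne1l, Kcne2 to Kcne4, Kcnip1, Kcnip2, Kcnip4, Kcnmb1, Kcnmb2, Kcnmb4 and Kcnrg). The remainder were 9 inward rectifiers (Kcnj1 to Kcnj6, Kcnj9, Kcnj12 and Kcnj14), 7 tandem-pore domain channels (Kcnk4, Kcnk7, Kcnk9, Kcnk10, Kcnk12, Kcnk15 and Kcnk18) and Kcnn2, Kcnn3, Kcnt1 and Kcnu1. For these genes an absent transcript and one under the detection limit cannot be told apart.

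**Figure D1:**
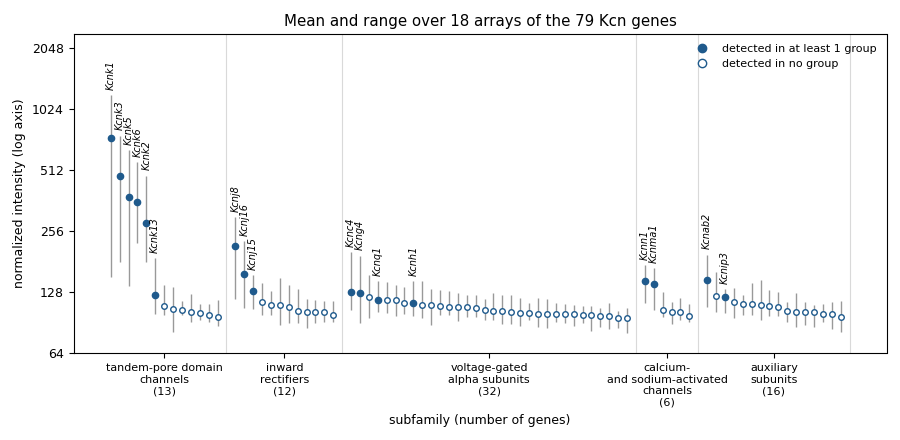
Normalized intensity (log axis) of the 79 genes by subfamily, each point a gene's mean over 18 arrays and each line its lowest to highest array. The 17 named genes were detected in at least 1 group, and the 62 open points were detected in none; heights of different genes come from different probes and are not to be compared.

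A call required, in limma, a difference of at least 1.5-fold with an adjusted p under 0.01. Against 0 Gy, 9 of the 79 genes were called at 1 or more doses in the authors' values (Kcnk1, Kcnk2, Kcnk3, Kcnk5, Kcnk6, Kcnj8, Kcnj16, Kcng4 and Kcnc4) and 5 after joint normalization (Kcnk1, Kcnk3, Kcnk5, Kcnk6 and Kcnj16). These are 11.4% and 6.33% of the 79 genes, against 21.8% and 9.48% of all probes, so that the share of the family was under that of all probes in both. Fewer of the 79 genes than of all probes were detected (21.5% against 44%), and these shares count the undetected ones too. By subfamily the called genes were 5 tandem-pore domain channels, 2 inward rectifiers and 2 voltage-gated alpha subunits in the authors' values, and 4, 1 and 0 after joint normalization. None of the 9 was undetected in all groups.

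At 0.05 Gy, 2 genes were called higher (Kcnk1 and Kcnk5) and 4 lower (Kcnk3, Kcnk6, Kcnj8 and Kcng4), where 1.04% and 15.7% of all probes were called. At 0.5 Gy the same 2 were called higher and the same 4 lower, against 1.49% and 15.3% of all probes. The 4 lower calls are 5.06% of the 79 genes, a smaller share than that of all probes. The 2 higher calls are 2.53%, a larger share than that of all probes, but one of 2 genes only. After joint normalization 2 were higher and 1 lower at 0.05 Gy (2.59% and 2.16% of all probes), and 3 higher and 1 lower at 0.5 Gy (3.66% and 3.88%). The shares of the 79 genes were then 2.53% and 1.27% at 0.05 Gy, and 3.8% and 1.27% at 0.5 Gy, each near or under that of all probes.

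At 1.4 Gy, 1 gene was called higher and 2 lower (1.58% and 1.48% of all probes), and 0 and 2 after joint normalization (1.23% and 1.19%). At 11.2 Gy, 3 were called higher and 0 lower (2.23% and 1.07%), and 2 and 0 after joint normalization (1.83% and 0.946%). At 32.4 Gy, 4 were called higher and 1 lower (1.61% and 0.895%), and 2 and 0 jointly (1.3% and 0.771%). An unadjusted p under 0.05 in limma, in either direction, was reached by 33, 38, 18, 15 and 12 of the 79 genes in order of dose. The counts were 20, 20, 15, 13 and 12 jointly. The share of all probes at that unadjusted limit was not computed, so that these counts cannot be read as a trait of the family. The share of the 79 genes called higher at 32.4 Gy was 5.06%, and 2.53% after joint normalization.

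The median log2 ratio of the 79 genes to 0 Gy was −0.13, −0.13, 0.01, 0.02 and 0.01 in order of dose. After joint normalization it was 0.01, 0.02, 0.01, 0.02 and 0.01. That of all probes was 0.00, −0.01 and −0.01 at 1.4, 11.2 and 32.4 Gy in the authors' values. As most of the 79 genes were not detected, the family's median is largely one of background signals. In limma's F test for any difference among the 6 groups, 11 genes were called (13.9%, against 28.7% of all probes), and 6 after joint normalization (7.59%, against 12.9%). Kcnab2 and Kcnk13 were called by this test, in the authors' values only, and at no single dose.

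Kcnk1 encodes TWIK-1, a weakly conducting background channel of many epithelia. Its signals were 485, 443 and 484 on the 3 arrays at 0 Gy, 865, 769 and 885 at 0.05 Gy, and 1199.9, 872 and 1182 at 0.5 Gy. At 1.4 Gy they were 169.8, 152 and 177, at 11.2 Gy 1102, 1076 and 1041, and at 32.4 Gy 776, 852 and 729. Every array at 0.05, 0.5, 11.2 and 32.4 Gy lay above the 3 control arrays, and every array at 1.4 Gy lay below them. The log2 ratio to 0 Gy was 0.83, 1.19, −1.51, 1.19 and 0.74 in order of dose, each ± 0.10 (SE), with adjusted p-values of 4.26e-08, 5.22e-11, 2.75e-12, 3.17e-10 and 2.18e-06. After joint normalization it was 1.43, 1.80, −1.23, 1.17 and 0.71. Kcnk1 was the only member called at all 5 doses in both normalizations. At 11.2 Gy it stood 6.47-fold above 1.4 Gy (1073 ± 30.5 against 166 ± 12.7, SD; log2 difference 2.69 ± 0.10, adjusted p = 3.95e-18).

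Kcnk5 encodes TASK-2, a leak channel of kidney and other epithelia that opens at alkaline pH and on cell swelling. It gave 172, 185 and 138 at 0 Gy, 365, 469.9 and 318 at 0.05 Gy, and 535, 641 and 546 at 0.5 Gy. At 1.4 Gy the signals were 177, 206 and 209, at 11.2 Gy 562, 496 and 513, and at 32.4 Gy 421, 424 and 444. Arrays at 1.4 Gy overlapped those of the controls, and arrays at the other 4 doses all lay above them. The log2 ratio was 1.21, 1.80, 0.27, 1.68 and 1.39, each ± 0.11, called at each dose but 1.4 Gy (adjusted p = 1.05e-09, 3.66e-13, 0.132, 7.77e-12 and 4.27e-10). Joint normalization gave 1.51, 2.11, 0.19, 1.38 and 1.12, with the same calls. The gene has 2 further probes, of which one was detected in 3 groups and the other in none. Neither was called at any dose, and the detected one had log2 ratios of 0.37, 0.42, 0.05, 0.49 and 0.32.

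Kcnk1 and Kcnk5 were called higher together at 4 doses, and the bases upstream of both genes are printed for that reason. Both stretches are the 250 bases before the annotated start, from RefSeq on GRCm38.p6, read 5′ to 3′ on the gene's strand. That of Kcnk1 is chr8:125994852-125995101 on the plus strand and that of Kcnk5 is chr14:20181783-20182032 on the minus strand. Capitals mark GGGCGG, the GC box, searched on both strands with overlaps allowed, as was TATAAA, the TATA box.
Kcnk1: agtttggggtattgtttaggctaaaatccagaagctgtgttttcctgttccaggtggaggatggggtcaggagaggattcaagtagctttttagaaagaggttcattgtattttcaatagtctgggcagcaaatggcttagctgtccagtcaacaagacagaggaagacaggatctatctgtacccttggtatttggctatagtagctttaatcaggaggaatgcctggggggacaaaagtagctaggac
Kcnk5: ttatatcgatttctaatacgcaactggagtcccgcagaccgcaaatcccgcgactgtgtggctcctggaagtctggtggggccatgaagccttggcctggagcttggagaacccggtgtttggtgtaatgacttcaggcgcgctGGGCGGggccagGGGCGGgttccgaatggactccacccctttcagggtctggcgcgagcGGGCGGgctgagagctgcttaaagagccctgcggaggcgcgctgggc
Kcnk5 held 3 GC boxes, the nearest 41 bases before the start, and Kcnk1 held 0. Neither held TATAAA, so that the genes share neither motif. Of 32851 promoter stretches of the same length, 32.7% held a GC box and 12.4% a TATA box.

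Markers of other tissues moved with these signals. The summed jointly normalized signal of the submandibular and sublingual markers was 42139 to 45547 at 0 Gy, 129985 to 134699 at 0.05 Gy and 131107 to 145223 at 0.5 Gy. It was 52133 to 53407 at 1.4 Gy, 125121 to 131234 at 11.2 Gy and 103476 to 107247 at 32.4 Gy. All 10 markers were detected somewhere, 8 of them at 0 Gy. Of the list, Aqp5, the water channel of salivary acinar cells, had joint log2 ratios of 1.68, 1.95, −2.17, 1.40 and 0.90, and Bhlha15, a transcription factor of secretory cells, had 1.08, 1.70, −2.27, 0.93 and 0.50. These 2 genes were chosen after their values were seen, and the list did not move as one. Of the 10 markers, 8 had joint ratios above 0 at each of the 4 doses at which Kcnk1 was called higher. Dcpp1 (−8.12, −7.60, −8.15, −4.93 and −8.17) and Dcpp2 (−0.41, −0.39, −0.44, −0.44 and −0.44) were below 0 at all 5 doses. At 1.4 Gy, 6 were below 0 and 4 above, namely Smgc (6.34), Prol1 (4.12), Klk1b26 (2.94) and Klk1b22 (1.98). The sum at 1.4 Gy lay above all control arrays, whereas Kcnk1 lay below them. The skeletal muscle sum was 2929 to 3017 at 0 Gy and averaged 18776, 15134, 6358, 12789 and 28012 at the 5 doses, in another order than either channel. The smooth muscle and pericyte sum averaged 3678 at 0 Gy and 5143, 6123, 3524, 5717 and 5167 at the 5 doses. It was thus also high at the 4 doses at which Kcnk1 was called higher. At 1.4 Gy (3425 to 3627) it overlapped the controls (3517 to 3813). Of its 8 markers, 4, 4, 4 and 3 had joint ratios above 0 at 0.05, 0.5, 11.2 and 32.4 Gy. The part of these tissues in the ratios of Kcnk1 and Kcnk5 was not tested.

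Kcnk3 encodes TASK-1, an acid-sensitive leak channel that in brown adipocytes of mice counteracts depolarization and restrains thermogenesis. Its signals were 757, 713 and 740.2 at 0 Gy, 279.5, 295 and 293 at 0.05 Gy, and 180.5, 181 and 187 at 0.5 Gy. At 1.4 Gy they were 545, 552 and 539, at 11.2 Gy 539.5, 593 and 547, and at 32.4 Gy 509.5, 586 and 598. All irradiated arrays lay below all control arrays, those of 0.5 Gy lowest. The log2 ratio was −1.35 at 0.05 Gy (adjusted p = 1e-14) and −2.01 at 0.5 Gy (1.22e-18), each ± 0.07, and −0.74 and −1.39 after joint normalization, with both doses called in both. At 1.4, 11.2 and 32.4 Gy it was −0.43, −0.40 and −0.39 (adjusted p = 3.36e-05, 9.23e-05 and 0.000164), which did not reach 1.5-fold. Between 0.5 and 0.05 Gy the log2 difference was −0.66 ± 0.07 (adjusted p = 1.28e-07, −0.65 jointly).

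The summed signal of the 8 brown adipose markers was 44591 to 46763 at 0 Gy, 30236 to 31185 at 0.05 Gy and 14459 to 16531 at 0.5 Gy, all in jointly normalized values. It was 47758 to 51446 at 1.4 Gy, 37290 to 40305 at 11.2 Gy and 43654 to 45927 at 32.4 Gy, with 7 or 8 markers detected in each group. As with Kcnk3, the sum was lowest at 0.5 Gy, next at 0.05 Gy, while at 1.4 Gy it was above all control arrays, unlike Kcnk3. All 8 markers had joint ratios below 0 at 0.05 and 0.5 Gy, as had 5, 7 and 6 of them at 1.4, 11.2 and 32.4 Gy, the direction of Kcnk3. Those above 0 at 1.4 Gy were Ucp1, Ppara (0.24) and Slc27a2 (0.07). Ucp1, the uncoupling protein that defines brown fat, was detected in all groups, with joint log2 ratios of −0.08, −1.11, 0.47, −0.01 and 0.37. The part of brown adipose tissue in the ratios of Kcnk3 was not tested.

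**Figure D2:**
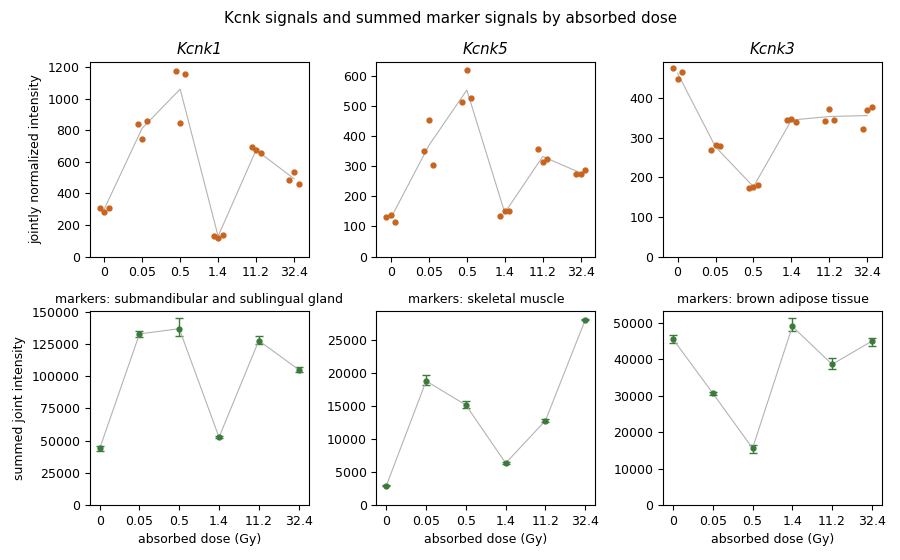
Top, jointly normalized intensity of Kcnk1, Kcnk5 and Kcnk3 on each of 3 arrays per absorbed dose (line, mean). Bottom, summed jointly normalized intensity of the submandibular and sublingual, skeletal muscle and brown adipose markers (mean, with bars from lowest to highest array). The gland sum is high at 0.05, 0.5, 11.2 and 32.4 Gy, as Kcnk1 and Kcnk5 are, and the brown adipose sum is lowest at 0.5 Gy, as Kcnk3 is. The smooth muscle and pericyte sum, not drawn, is high at the same doses as the gland sum.

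Kcnk6 encodes TWIK-2, a weakly rectifying background channel. It gave 541, 519.7 and 558 at 0 Gy, 255, 279.9 and 225 at 0.05 Gy, and 297, 278 and 318 at 0.5 Gy. At 1.4 Gy the signals were 281, 250.7 and 254, at 11.2 Gy 420.0, 381 and 405, and at 32.4 Gy 376, 369 and 372. No irradiated array reached the lowest control array. The log2 ratio was −1.10, −0.86, −1.04, −0.42 and −0.54, each ± 0.08, and was called at 0.05, 0.5 and 1.4 Gy (adjusted p = 5.84e-12, 4.13e-10 and 5.71e-11). After joint normalization it was −0.49, −0.26, −0.91, −0.38 and −0.48, and of these only −0.91 at 1.4 Gy was called. A second probe, detected in all 6 groups, had −0.66, −0.58, −0.66, −0.45 and −0.47 in the authors' values and was called at 0.05 and 1.4 Gy but not at 0.5 Gy, where the first probe was. Jointly it had −0.50 at 1.4 Gy and was called at no dose.

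Kcnk2 encodes TREK-1, a leak channel opened by stretch and polyunsaturated fatty acids. Its signals were 305, 265 and 292 at 0 Gy, 179.8, 198 and 231 at 0.05 Gy, and 205, 192 and 212 at 0.5 Gy. They were 417, 481 and 412 at 1.4 Gy, 262, 300.1 and 287 at 11.2 Gy, and 274, 264 and 285 at 32.4 Gy. Only the arrays of 1.4 Gy lay above those of the controls. The log2 ratio there was 0.60 ± 0.09 (adjusted p = 7.34e-06), close to the limit of 1.5-fold. It was 0.53 after joint normalization (adjusted p = 6.96e-06), which fell short of that limit. The call was lost without array 2 of 0 Gy or array 2 of 1.4 Gy (log2 ratio at the smallest 0.53). After joint normalization, the ratio of −0.51 at 0.05 Gy became −0.01 and that of −0.50 at 0.5 Gy became 0.00. A second Kcnk2 probe, detected in no group, had 0.24 at 1.4 Gy (0.16 jointly). Kcnk13, which encodes a channel inhibited by halothane, was detected only at 1.4 Gy (147, 188 and 141, against 114, 129 and 132 at 0 Gy) and was called at no dose, with log2 ratios from −0.25 to 0.34.

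Among the inward rectifiers, Kcnj16 encodes Kir5.1, which forms channels of potassium-transporting epithelia with Kir4 subunits. Its signals were 123, 120.1 and 122 at 0 Gy, where it was below detection, 134, 150.2 and 134 at 0.05 Gy, and 171, 152.5 and 190.2 at 0.5 Gy. They were 108, 114 and 110.4 at 1.4 Gy, again not detected, 229, 202 and 220.4 at 11.2 Gy, and 187, 183.5 and 185 at 32.4 Gy. Detection is a limit on the same signal and adds nothing to the level. The 4 doses of detection were those at which Kcnk5 was called, although Kcnj16 was not called at 0.05 Gy in either normalization. In the authors' values it was called at 11.2 Gy (log2 ratio 0.84 ± 0.08, adjusted p = 2.47e-09, at least 1.64-fold) and 32.4 Gy (0.61 ± 0.08, adjusted p = 9.36e-07, at least 1.40-fold). These bounds hold only for the normalization they were taken from. In them each dim array stands at the lowest signal of any detected probe, or at its own where that is higher. Joint normalization gave 0.57 and 0.40 there, neither called, and a call at 0.5 Gy instead (0.64, adjusted p = 5.48e-09, at least 1.48-fold), which was lost without array 3 of 0.5 Gy (0.57). Between 11.2 and 1.4 Gy it was called in both, with a log2 difference of 0.97 ± 0.08 (adjusted p = 6.59e-11) and jointly 0.66, at least 1.66-fold and 1.42-fold. The gland marker sums given above moved in the same direction at these doses, and their part was not tested.

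Kcnj15, for Kir4.2, was detected at 0.05, 0.5 and 32.4 Gy, with means of 135, 131 and 143 against 113 at 0 Gy, and was called at no dose in either normalization, though at 0.05 and 0.5 Gy after neqc, the background correction and quantile normalization of limma run on the non-normalized intensity. Its log2 ratios were 0.26, 0.22, 0.09, 0.28 and 0.34, and 0.40, 0.36, 0.06, 0.18 and 0.21 jointly. All of these were above 0. The other probes of Kcnj15, detected in no group, had joint ratios of −0.04 and −0.09 at 0.05 Gy and −0.03 and −0.09 at 0.5 Gy.

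Kcnj8 encodes Kir6.1, the pore of the ATP-sensitive channel of vascular smooth muscle and pericytes. It gave 267, 253 and 247 at 0 Gy, 153, 159 and 130.0 at 0.05 Gy, and 119, 126 and 128 at 0.5 Gy. The other doses gave 297, 266 and 299 (1.4 Gy), 258, 225 and 233 (11.2 Gy), and 252, 234 and 229.9 (32.4 Gy). The 6 arrays of 0.05 and 0.5 Gy lay below all others. The log2 ratios of −0.80 and −1.04 at these doses were called (each ± 0.08, adjusted p = 2.88e-09 and 1.62e-11), and after joint normalization −0.32 and −0.54 were not (adjusted p = 0.000771 and 2.29e-07, under 1.5-fold). Of the markers of smooth muscle and pericytes, Rgs5 had joint log2 ratios of −0.95 and −1.17 at these doses, Cspg4 −0.56 and −0.48, Pdgfrb −0.05 and −0.07, and Acta2 0.73 and 1.08, and 4 of the 8 markers were below 0 at both. The summed signal of that list was 3517 to 3813 at 0 Gy, 4919 to 5394 at 0.05 Gy and 5811 to 6439 at 0.5 Gy. It averaged 3524, 5717 and 5167 at 1.4, 11.2 and 32.4 Gy. The endothelial sum averaged 3423, 2258, 2209, 3561, 2598 and 2791 in order of dose from 0 Gy, and that of macrophages 2687, 1491, 1526, 3378, 2337 and 2725. Their part in the ratios of Kcnj8 was not tested. Abcc9, the regulatory subunit that joins Kir6.1, had joint log2 ratios between −0.09 and 0.25 and was called at no dose.

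**Figure D3:**
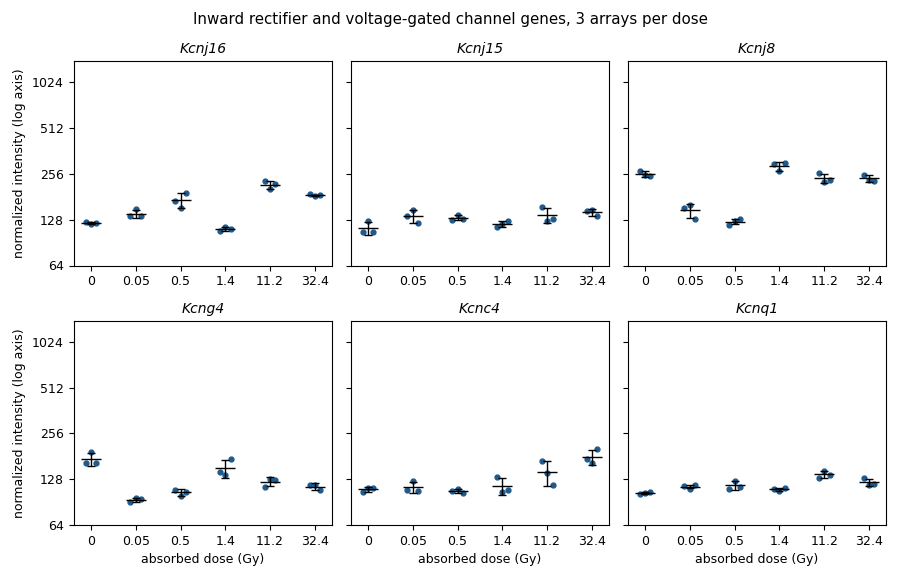
Normalized intensity (log axis) of 3 inward rectifier genes (top) and 3 voltage-gated alpha subunit genes (bottom) against absorbed dose, with a point for each of 3 arrays and a bar for the mean ± SD. Kcnj16 is highest at 11.2 Gy (217 ± 13.7), Kcnj8 is lowest at 0.5 Gy (124 ± 5.0), and Kcnq1 stays below 146 on every array.

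Of the voltage-gated alpha subunits, Kcng4 encodes Kv6.4, a silent subunit that modifies Kv2 channels. It was detected at 0 Gy (164, 194 and 163) and 1.4 Gy (143, 137 and 175). It was below detection on every array of 0.05 Gy (90.8, 96.6 and 94.9), 0.5 Gy (109.5, 99.5 and 106), 11.2 Gy (114, 129 and 128) or 32.4 Gy (118, 118 and 109). The log2 ratios were −0.88, −0.72, −0.20, −0.49 and −0.59, each ± 0.09, called at 0.05 Gy (adjusted p = 2.45e-09, at least 1.52-fold lower), 0.5 Gy (7.19e-08, at least 1.57-fold lower) and 32.4 Gy (1.21e-05, at least 1.31-fold lower). The call at 32.4 Gy was lost without array 2 of 0 Gy or array 3 of 32.4 Gy (log2 ratio at the smallest −0.51). None of the 5 was called after joint normalization (−0.50, −0.36, −0.14, −0.31 and −0.38). The bounds hold for the authors' values only, and the joint ratios at the called doses were smaller than these bounds. A second Kcng4 probe, detected in no group, had −0.23, −0.20 and −0.09 at 0.05, 0.5 and 32.4 Gy (−0.07, −0.04 and −0.06 jointly).

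Kcnc4 encodes Kv3.4, a fast-inactivating channel of skeletal muscle and neurons. It was detected only at 32.4 Gy, with 173, 163 and 202, against 106, 113 and 112 at 0 Gy, and those 3 arrays lay above all controls. The log2 ratio was 0.70 ± 0.10 (adjusted p = 1.66e-05, at least 1.35-fold) and jointly 0.46, not called. At 11.2 Gy, where 2 of 3 arrays detected it (168, 141 and 117), the log2 ratio was 0.35 (adjusted p = 0.0168). A second Kcnc4 probe, detected in no group, had 0.11 at 11.2 Gy and 0.05 at 32.4 Gy in the authors' values. The skeletal muscle sum was 27923 to 28083 at 32.4 Gy against 2929 to 3017 at 0 Gy, and was also high at 0.05 Gy (18235 to 19717), where Kcnc4 gave 109, 125 and 108. The part of muscle in the signal of Kcnc4 was not tested.

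Kcnh1, for the EAG1 channel, was detected only at 0.5 Gy (145, 132 and 131, against 102, 103 and 101 at 0 Gy), with a log2 ratio of 0.41 (0.51 jointly) that was not called in either, though it was after neqc background correction. A second Kcnh1 probe, detected in no group, went the other way at 0.5 Gy (−0.29, and −0.12 jointly). Kcnq1, the alpha subunit of the thyroid channel named at the outset, was also detected only at 0.5 Gy, with 2 of 3 arrays detecting it at 0.05 and 11.2 Gy. It averaged 104 ± 1.4, 115 ± 3.2, 117 ± 8.1, 109.8 ± 3.2, 138 ± 7.4 and 122 ± 6.7 at 0 to 32.4 Gy (SD). The log2 ratio at 11.2 Gy was 0.40 ± 0.07 (adjusted p = 7.27e-05), the highest of the 5 in the authors' values. Jointly the ratios were 0.25, 0.27, 0.06, 0.26 and 0.16 in order of dose, and neither normalization reached 1.5-fold. After neqc background correction Kcnq1 was called at 0.05, 0.5 and 11.2 Gy. A second Kcnq1 probe, detected in no group, had 0.16 at 11.2 Gy (0.12 jointly).

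Its partner Kcne2 was detected on no array, with signals from 86.4 to 111 and log2 ratios from −0.08 to 0.02. Kcne1 and Kcne3, which join Kcnq1 in the heart and in the colon, were detected in no group. Their log2 ratios lay between −0.18 and 0.15 and between −0.07 and 0.15. None of these 3 subunits was thus above the detection limit in any group, and none was called.

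**Figure D4:**
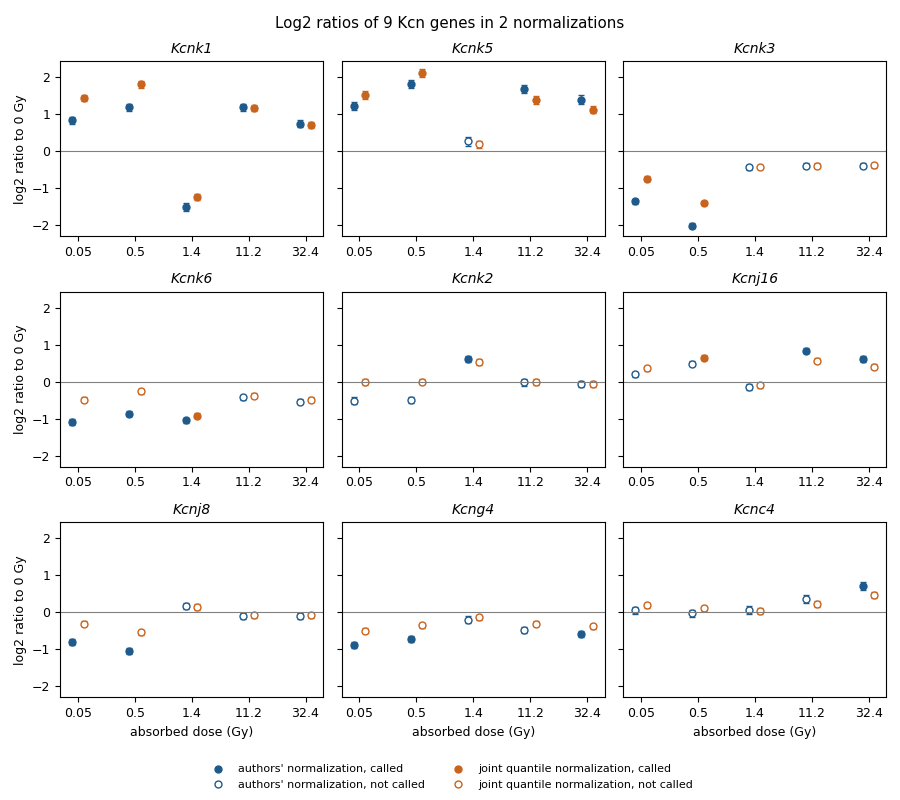
Log2 ratio to 0 Gy (± SE, limma) of the 9 called genes at 5 absorbed doses, in the authors' normalization (blue) and after joint quantile normalization (orange), filled where called. Kcnk1 is filled at every dose in both, whereas Kcnj8, Kcng4, Kcnk2 and Kcnc4 are filled in the authors' values only.

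Both detected auxiliary subunits and both detected calcium-activated channels were called at no dose in either normalization. After neqc background correction Kcnip3 and Kcnma1 were called at 0.05 and 0.5 Gy. Kcnab2, a beta subunit of Kv1 channels, averaged 161, 118, 113, 185, 163 and 147 in order of dose from 0 Gy. The log2 ratio was −0.44 at 0.05 Gy (−0.12 jointly) and −0.51 at 0.5 Gy (−0.18 jointly). Kcnip3, a calcium-binding subunit of Kv4 channels, was detected at 0.05 and 0.5 Gy (126 and 126, against 112 at 0 Gy), with log2 ratios of 0.18 and 0.17 (0.30 and 0.30 jointly). It averaged 115, 125 and 120 at 1.4, 11.2 and 32.4 Gy, where it was not detected. Its log2 ratio at 11.2 Gy was 0.16 (0.10 jointly). Kcnma1, the large-conductance channel opened by calcium and voltage that secretes potassium in salivary glands, was detected at 0.05, 0.5, 11.2 and 32.4 Gy. It averaged 145, 144, 165 and 145 there, against 130.4 at 0 Gy and 111 at 1.4 Gy. Its log2 ratio in the authors' values was largest at 11.2 Gy (0.34, adjusted p = 0.00545, under 1.5-fold). Jointly it was 0.36, 0.35, −0.15, 0.22 and 0.10, largest at 0.05 Gy (adjusted p = 0.000189, under 1.5-fold). Kcnn1, a small-conductance channel detected in 4 groups, had log2 ratios from −0.54 to −0.09 (−0.18 to −0.03 jointly).

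Neighbouring doses were also compared directly, except 1.4 and 0.5 Gy, whose arrays have different distributions in the authors' values. At 0.5 Gy against 0.05 Gy, Kcnk5 was higher (log2 difference 0.59 ± 0.11, adjusted p = 0.000808, 0.60 jointly) and Kcnk3 lower, 2 genes in both normalizations, against 1.02% of all probes (1.04% jointly). The call of Kcnk5 was lost without array 1 or 3 of 0.05 Gy or array 2 of 0.5 Gy, in both normalizations (0.47 at the smallest in each). At 11.2 Gy against 1.4 Gy, Kcnk1, Kcnk5, Kcnk6 and Kcnj16 were higher and Kcnk2 lower, 5 genes or 6.33% against 6.32% of all probes. The log2 differences not yet given were 1.41 ± 0.11 for Kcnk5 (adjusted p = 1.39e-10), 0.62 ± 0.08 for Kcnk6 (4.26e-07) and −0.62 ± 0.09 for Kcnk2 (2.04e-06), the last lost without array 2 of 1.4 Gy or array 1 of 11.2 Gy (−0.55 at the smallest). After joint normalization 3 remained (Kcnk1, Kcnk5 and Kcnj16, 5.25% of all probes). At 32.4 Gy against 11.2 Gy limma called 0 genes in both (0.856% and 0.712% of all probes). There 13 had an unadjusted p under 0.05 (7 jointly), a limit at which the share of all probes was not computed. The log2 difference of Kcnk1 there was −0.45 ± 0.10 (adjusted p = 0.00306), under 1.5-fold.

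Of 40 genes that move potassium or regulate these channels (sodium pump and other P-type ATPase subunits, FXYD proteins, cation-chloride cotransporters and their kinases, channel partners), 33 had a probe and 20 were detected. In the authors' values 5 were called higher and 6 lower at 0.05 Gy, 7 and 7 at 0.5 Gy, 1 and 5 at 1.4 Gy, 6 and 0 at 11.2 Gy, and 6 and 0 at 32.4 Gy. The higher calls are 15.2%, 21.2%, 3.03%, 18.2% and 18.2% of the 33 in order of dose, against 1.04%, 1.49%, 1.58%, 2.23% and 1.61% of all probes. The lower calls are 18.2%, 21.2%, 15.2%, 0% and 0%, against 15.7%, 15.3%, 1.48%, 1.07% and 0.895%. Jointly the counts were 7 and 1, 7 and 2, 1 and 5, 6 and 0, and 6 and 0. All probes then had 2.59%, 3.66%, 1.23%, 1.83% and 1.3% higher and 2.16%, 3.88%, 1.19%, 0.946% and 0.771% lower. The list was chosen with earlier results of these data known, so that these shares are not a test of it. Of the 33 genes, 20 were detected, against 44% of all probes, and the shares were not adjusted for this. Fxyd2, the gamma subunit of the sodium pump, had joint log2 ratios of 2.52, 2.84, −0.89, 2.75 and 2.15. Slc12a2, the sodium-potassium-chloride cotransporter NKCC1 that loads secretory cells with chloride, had 1.37, 1.01, −0.71, 1.38 and 0.90 in the authors' values. Lrrc26, an auxiliary subunit that lets Kcnma1 channels open at low voltage in secretory cells, had joint log2 ratios of 1.72, 1.84, −1.69, 1.58 and 1.02. Atp1b1, the usual beta subunit of the sodium pump in epithelia, had 1.56, 1.62, −2.00, 1.58 and 0.91. These 4 genes were called at all 5 doses in both normalizations, with the signs that Kcnk1 had.

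Stk39, the kinase SPAK that activates NKCC1, had joint log2 ratios of 1.88, 1.84, −0.30, 1.62 and 1.21, called at all doses but 1.4 Gy, as Kcnk5 was. Fxyd3 had 0.85, 1.42, −2.76, 0.45 and 0.04 and Fxyd6 0.96, 1.60, 0.47, 0.34 and 1.30. Atp4b, the beta subunit of the proton-potassium pump of the stomach, was lower at 0.05 and 0.5 Gy (−0.95 and −1.43), and Atp1b3, a beta subunit of the sodium pump, was lower in both normalizations at 0.5 Gy only (−0.69). Sgk1, a kinase that raises the surface level of several channels, was higher at 1.4 Gy (0.65) and 11.2 Gy (0.81). The gland marker sums given above moved with Fxyd2, Slc12a2, Lrrc26, Atp1b1 and Stk39 at all doses but 1.4 Gy, and the part of gland tissue in these ratios was not tested.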

How the data were processed

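Arrays were read with BeadScan, and the authors quantile-normalized the fluorescence intensity, deposited on a linear scale before and after normalization together with detection p-values. The p-values deposited with the normalized table were used for detection. Whether background was subtracted is not given in the sources used here. The 815 control probes were left out, and 1719 other probes had no single gene symbol.

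The log2 of the authors' normalized intensity was fitted in limma 3.58.1 (R 4.3.3) with a mean per group over 18 arrays, moderated statistics, and p-values were adjusted by Benjamini-Hochberg over 25697 probes. All adjusted p-values in the text are from limma, SE are its moderated ones and SD is between the 3 arrays. Joint values are log2 of the non-normalized intensity, quantile-normalized over all 18 arrays. The fit was tested on simulated data with known changes. Promoters were matched by symbol for 61 of the 79 genes, from RefSeq. Figures were drawn with matplotlib 3.10.9.

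Named genes were the detected members called at 1 or more doses in either normalization, the member with the highest mean in each subfamily if detected on all 18 arrays, and Kcnq1, Kcne1, Kcne2 and Kcne3. The other detected members were added so that all 17 are given. Of the potassium transport genes, those called in both normalizations were named, up to 2 per dose and direction. Marker genes given singly (Aqp5, Bhlha15, Dcpp1, Dcpp2, Smgc, Prol1, Klk1b26, Klk1b22, Ucp1, Ppara, Slc27a2, Rgs5, Cspg4, Pdgfrb and Acta2) and Abcc9 and Atp1b1 were chosen after their values were seen. The members and gene lists were chosen with earlier results of these data known. Other normalizations, probe filters, a replicate block and fits without single arrays were tried as alternatives.

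Replicate numbers were checked for pairing by correlating the deviations of same-numbered arrays. All 3 pairs of 32.4 Gy and 0 Gy were over 0.1, but over all doses only 7 of 15 were (−0.0325 to 0.228). For 12 of the 15 arrays the control array with the highest correlation had the same number. As not all pairs were over 0.1, the numbers were not used as pairs.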

Additional observations from a re-analysis of the deposited data

Results flagged for a closer look

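The ratios to 0 Gy differed between doses, by limma's direct test of one dose against another, for the following genes, all of which share the same control arrays. At 0.5 Gy against 0.05 Gy the log2 difference was −0.66 for Kcnk3 (adjusted p = 1.28e-07, −0.65 jointly) and 0.59 for Kcnk5 (adjusted p = 0.000808, 0.60 jointly). At 11.2 Gy against 1.4 Gy it was 2.69 for Kcnk1, which was higher than in the controls at 11.2 Gy and lower at 1.4 Gy, and 1.41 for Kcnk5, 0.97 for Kcnj16, 0.62 for Kcnk6 and −0.62 for Kcnk2 (adjusted p from 3.95e-18 for Kcnk1 to 2.04e-06 for Kcnk2). After joint normalization the differences of Kcnk6 (0.53) and Kcnk2 (−0.54) were under 1.5-fold and those of Kcnk1 (2.40), Kcnk5 (1.19) and Kcnj16 (0.66) were called.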

How the results depend on the processing

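Of 23 calls of a gene at a dose against 0 Gy, 12 were kept after joint quantile normalization, 14 after 75th-percentile scaling and 22 after neqc background correction, and none turned. All 23 were kept with a replicate block, with an intensity trend and robust fit, and among detected probes only, and 23, 21 and 23 without replicates 1, 2 and 3. The replicate block left the counts of 6, 6, 3, 3 and 5 genes at the 5 doses, from 0.05 Gy to 32.4 Gy, as they were.

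The counts that moved by more than 1.5 times were as follows. At 0.05 Gy (6 genes), joint normalization and 75th-percentile scaling gave 3 and neqc 11. At 0.5 Gy (6 genes) neqc gave 11, and at 11.2 Gy (3 genes) 5. The genes that neqc added were Kcnip3, Kcnj15, Kcnj16, Kcnma1 and Kcnq1 at 0.05 and 0.5 Gy, Kcnh1 at 0.5 Gy, Kcng4 and Kcnq1 at 11.2 Gy and Kcnk6 at 32.4 Gy, and it lost Kcnk6 at 0.5 Gy. At 32.4 Gy (5 genes), joint normalization and 75th-percentile scaling gave 2. At 11.2 Gy against 1.4 Gy (5 genes), joint normalization gave 3. Without 1 array or replicate number, 0.5 Gy against 0.05 Gy gave 1 to 2 genes in both normalizations (2 with all arrays), Kcnk5 being the one lost. The F test (11 genes) gave 6 jointly and 7 with 75th-percentile scaling. Detection on at least 1 array in place of all 3 of a group gave 38 genes in place of 17. The cause of these moves was not tested. Shares of all probes called after neqc or 75th-percentile scaling, or detected on at least 1 array, were not computed. Whether the moves there are particular to these genes thus cannot be told. The BeadChip as a block was not run, since the files name no chip. The 12-array fit and the fits of jointly normalized values without single arrays were chosen after seeing the data.

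The main limits are that each dose is 1 pool, so that mice of a group were not compared, that 62 of 79 genes were not detected and their ratios say nothing, and that absorbed dose and the tissues present in a pool cannot be told apart in these pools.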
